A study of Drosophila melanogaster with 7 samples.

Results

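The receptors for neuropeptides and peptide hormones of Drosophila melanogaster, which are G protein-coupled receptors (GPCRs), are described here. They were chosen by their gene symbols and not by any measured value, although earlier results of these data were known. All 38 receptor genes of the list were found among the 17753 genes in the deposited count table. RNA sequencing had been performed on 7 primary neuron cultures, which the labels place in a single control group. For such cultures the study's methods describe central nervous systems of larvae of the third instar, pooled from 3 animals per culture, dissociated with an enzyme and grown for 7 days in a medium with serum and insulin. The labels give no genotype, and the study describes the control neurons it sequenced as coming from w1118 flies. No treated or mutant culture was analysed, so no difference between conditions could be tested, and the question asked here is which receptors these cultures express, at what level, and how far the level differed from culture to culture. The study calls the cultures biological replicates, but no source says whether they were prepared on separate days, so the spread between them, and a test of it, may be technical in part.

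Neuropeptides are cut from larger precursor proteins, released from neurons or endocrine cells, and bind GPCRs on cells that may lie far from the site of release. A bound receptor activates a heterotrimeric G protein, which in turn changes the level of cyclic AMP or calcium in the receiving cell. In the fly larva such signals set feeding, water balance, growth and the sequence of moulting behaviours, and many of the receptors have close relatives among vertebrate peptide hormone receptors.

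The 7 libraries held between 21178515 and 33891136 counts, and each is named here by that total, with M for 1000000 counts, as the 21.2M, 25.1M, 25.7M, 26.8M, 28.5M, 28.6M and 33.9M libraries. None was a copy of another, since the counts of all 21 pairs disagreed beyond sampling noise. The cultures carried neuronal RNA in every library, with a summed level of 1781 to 2308 CPM (counts scaled to a library total of 1000000) over 5 of 5 detected pan-neuronal markers. The 26.8M library stood apart, because the marker sums of several other tissues were higher there than in the other 6. There 7 photoreceptor genes summed to 705.8 CPM, against 22.4 to 156.6 CPM. The sum of 3 yolk protein genes was 742.2 CPM, against 24.6 to 238.6 CPM. That of 5 muscle genes was 111.2 CPM, against 14.2 to 36.0 CPM, and that of 6 hemocyte genes 107.5 CPM, against 42.1 to 48.2 CPM. The sum of 6 fat body genes was 575.3 CPM, against 47.9 to 172.1 CPM. Of this, 557.7 CPM was apolpp, and Fbp1, Fbp2, Lsp1alpha and Lsp2 were each higher in another library. In the 28.5M library the neuronal RNA-binding protein gene fne had 63.8 CPM, against 196.1 to 392.0 CPM in the other 6, and the neuronal marker sum was the lowest of the 7.

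Of the 38 receptors, 34 reached at least 10 counts in every library, or 89.5%, against 53.4% of all genes listed. The other 4, AstA-R2, AkhR, Lgr1 and PK1-R, averaged under 1 CPM each. The receptors together took 988.7 ± 116.4 CPM (SD, n = 7), with the lowest sum of 855.6 CPM in the 28.5M library and the highest of 1149 CPM in the 28.6M library. Of this sum 37.6% fell on the 5 receptors highest by CPM, rk, Dh44-R1, FMRFaR, Dh44-R2 and sNPF-R. In these bulk cultures, fewer cells that express a receptor and less receptor RNA per cell cannot be told apart.

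To compare genes with each other, CPM were divided by the length of a gene's annotated exons in kb. On this scale the median receptor stood at 5.28 CPM per kb, against 1.45 CPM per kb over all genes listed, of which 61.9% were lower than the median receptor. Against the genes that were themselves detected the receptors were low, since only 10 of the 38 lay above the median of 12.5 CPM per kb over detected genes. The most and the least abundant receptor, Dh44-R1 and AstA-R2, differed 348-fold per kb. The order of the levels was largely continuous: of 37 pairs of neighbours in it, 4 differed by more than the SD of their difference within cultures. These were Dh44-R1 above Dh44-R2, CCHa2-R above FMRFaR, TkR86C above AstC-R2, and PK2-R2 above PK1-R, each with the same order in 7 of 7 libraries.

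**Figure D1:**
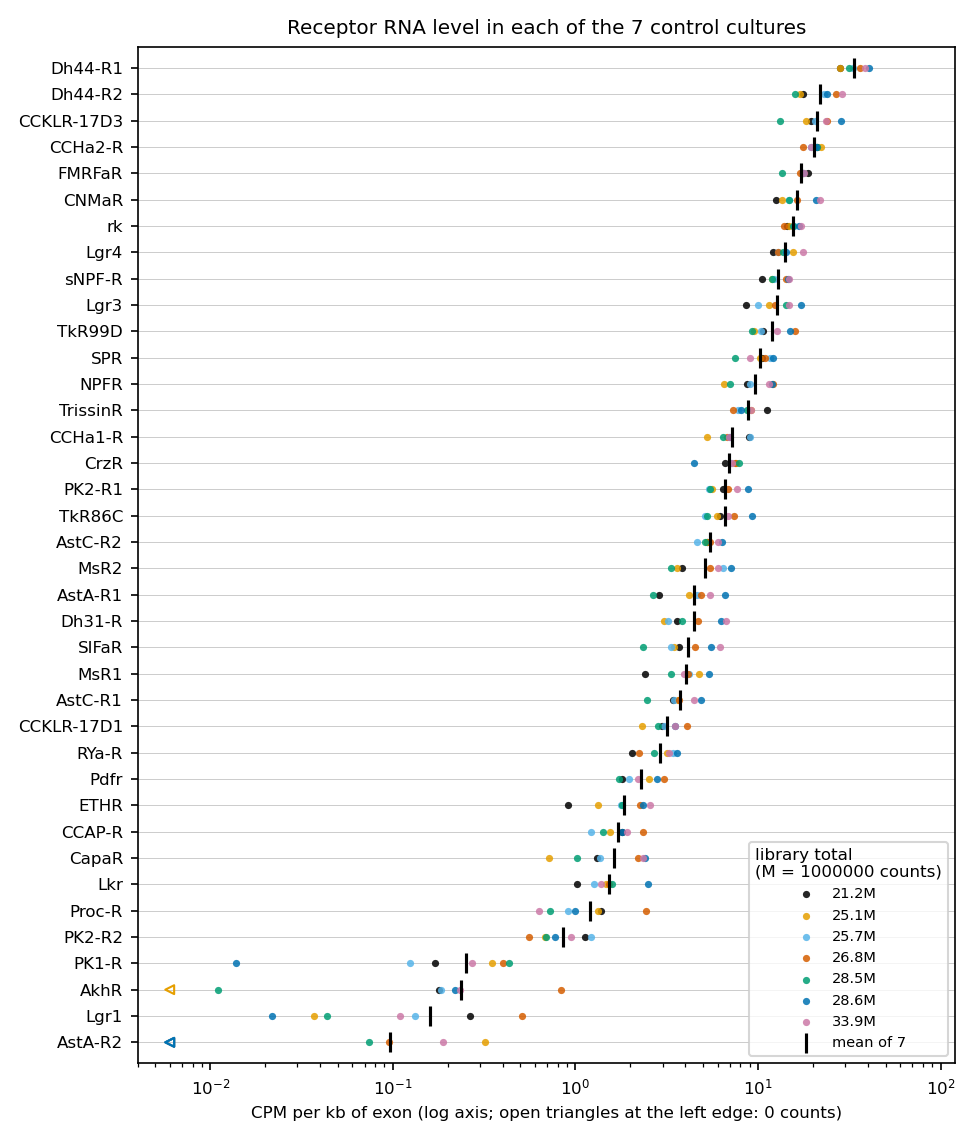
Level of each receptor, in CPM per kb of exon on a log axis, with a coloured point for each of the 7 libraries (named by total count) and a black bar for their mean. Receptors run from Dh44-R1 at the top, with a mean of 33.7 CPM per kb, to AstA-R2 at the bottom, with 0.0968 CPM per kb, and the points of the 4 lowest receptors are spread far more widely than those above.

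The receptors for diuretic hormones and for pigment-dispersing factor form the secretin-like family of GPCRs, and this family held both of the most abundant receptors per kb. Dh44-R1 (FBgn0033932, chromosome 2R, 14378097 to 14385359, plus strand, in the BDGP6.54 annotation used for all positions here) is a receptor for diuretic hormone 44, the fly relative of vertebrate corticotropin-releasing factor. It had 69.5 CPM in the lowest library, a median of 81.6 and 100.7 CPM in the highest. The 21.2M and 25.1M libraries were lowest and nearly equal, and the 28.6M library was highest. Dh44-R2, the other receptor for the same peptide, ranged between 52.3 and 94.0 CPM with a median of 75.1 CPM. Its libraries fell into a low trio, the 21.2M, 25.1M and 28.5M libraries, and a higher group of 4 without overlap. Exons of fdl and of CG34234 on the opposite strand cover 16.4% and 16.8% of the exon length of Dh44-R2. No source used here gives the strand setting of the counting. Counts of Dh44-R2 in these stretches could therefore include reads of those genes, or reads of Dh44-R2 could be missing.

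Dh31-R, the receptor for the calcitonin-like diuretic hormone 31, was lower than both, with 10.02 CPM at the lowest, a median of 12.5 and 21.9 CPM at the highest. The 28.6M and 33.9M libraries were clearly the highest for Dh31-R, with 20.6 and 21.9 CPM, and the other 5 stayed at or below 15.5 CPM. Pdfr, the receptor that carries the pigment-dispersing factor signal between clock neurons, had between 8.09 and 14.3 CPM with a median of 10.3 CPM. Per kb, Pdfr stood at 2.30 ± 0.51 CPM per kb, the lowest of the family, whose median was 13.2 CPM per kb.

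The leucine-rich repeat GPCRs, which bind large glycoprotein or relaxin-like hormones, held 3 well expressed receptors and Lgr1, which was near the detection limit. The gene rk, which encodes the receptor for bursicon, the hormone that hardens and tans the new cuticle, had 75.1 CPM in the lowest library, a median of 83.9 and 93.0 CPM in the highest. This was among the steadiest of the receptors, and no library stood out. Lgr4, a relative of the relaxin receptors, had 36.1 to 52.2 CPM with a median of 40.7 CPM. Lgr3, which receives the insulin-like peptide Ilp8 and through it delays maturation when growth is disturbed, spanned a wider range, 25.7 to 51.9 CPM with a median of 37.1 CPM. Here the 21.2M library was lowest and the 28.6M library highest. Exons on the opposite strand cover 29.2% of the exon length of Lgr4 (CG12096), 29.7% of that of Lgr3 (lncRNA:CR45225, with a further 4.76% under CG4730) and 9.79% of that of rk (NimC2).

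Lgr1, the receptor for the heterodimeric glycoprotein hormone of Gpa2 and Gpb5, had a median of only 0.354 CPM. Its counts were between 2 and 44 per library, and the 44 counts came from the 26.8M library. The mean of 0.514 ± 0.563 CPM became 0.327 ± 0.293 CPM over the remaining 6 without that library. The markers of other tissues that were high in the same library are given above, and their part in this value was not tested.

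The receptors for cholecystokinin-like and bombesin-like peptides each formed a pair with unequal members. CCKLR-17D3 (FBgn0030954, chromosome X, 18764483 to 18774027, minus strand), a receptor for the sulfakinins that act in satiety, had 29.3 CPM in the lowest library, a median of 45.5 and 63.9 CPM in the highest. The 28.5M library was well below the rest, which began at 40.8 CPM, and the 28.6M library was highest. CCKLR-17D1, the other sulfakinin receptor, lies on the same chromosome and strand, starts at 18707494 and ends at 18726572, and had only 7.36 to 12.999 CPM with a median of 9.80 CPM.

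CCHa2-R (FBgn0033058), through which the nutrient-dependent peptide CCHamide-2 reaches the insulin-producing cells of the larval brain, was the most even of all the receptors. It had 51.8 CPM at the lowest, a median of 61.3 and 65.2 CPM at the highest, and the 7 libraries were close together with the 26.8M library at the low end. CCHa1-R, the receptor for CCHamide-1, ranged between 14.0 and 23.9 CPM with a median of 18.4 CPM. The 21.2M and 25.7M libraries had the highest CCHa1-R levels, and the 25.1M library the lowest.

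Among the receptors for FMRFamide-related peptides, FMRFaR was the most abundant. FMRFaR, which binds FMRFamides, modulators of muscle and of neurosecretory cells, had 57.4 CPM in the lowest library, a median of 74.3 and 78.9 CPM in the highest. That lowest value belonged to the 28.5M library, and the other 6 lay within a narrow band from 71.6 CPM upwards. MsR1 and MsR2, both receptors for myosuppressin, a peptide that slows heart and gut muscle, were lower. MsR1 had between 8.50 and 19.0 CPM with a median of 14.7 CPM, and MsR2 had between 9.74 and 20.7 CPM with a median of 15.9 CPM. The 28.6M library was highest for both, while their lowest libraries differed.

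The neuropeptide Y-like receptors covered a broad range of levels. sNPF-R, the receptor for short neuropeptide F, a widely expressed peptide that promotes feeding and growth, had 50.1 CPM at the lowest, a median of 57.8 and 70.2 CPM at the highest. Its 26.8M, 28.6M and 33.9M libraries lay together at or above 67.8 CPM and did not overlap with the other 4. NPFR, which receives neuropeptide F and acts in feeding and stress responses, showed the same split, with 37.0 to 39.0 CPM in those 3 libraries, against 21.03 to 29.2 CPM in the other 4.

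SIFaR, the receptor for SIFamide, a peptide of a few brain neurons that act in courtship, sleep and feeding, had 11.8 CPM at the lowest, a median of 18.6 and 31.0 CPM at the highest. The 28.5M library was lowest and the 33.9M library highest. RYa-R, which binds RYamides, was the least abundant of the family at 4.72 to 8.24 CPM (median 7.28 CPM). Exons of Nep5 on the opposite strand cover 1.22% of its exon length.

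The tachykinin receptors were of middle abundance. TkR99D, the main receptor for the tachykinins, which modulate olfaction, nociception and aggression, had 26.6 to 45.9 CPM with a median of 30.8 CPM. Its highest library was the 26.8M library and its lowest the 28.5M library. TkR86C, the receptor for natalisin, a tachykinin-like peptide with a role in mating, had 16.4 to 29.9 CPM with a median of 20.1 CPM. Lkr, the receptor for leucokinin, a peptide of fluid secretion and meal size, was much lower at 2.97 to 7.34 CPM (median 4.33 CPM). The highest of these, 7.34 CPM, came from the 28.6M library, and the other 6 stayed at or below 4.66 CPM.

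Of the receptors with no close relative on the list, CNMaR stood at 16.3 CPM per kb, above the median of 12.5 over detected genes. TrissinR, at 8.77 CPM per kb, was below that median. CNMaR, the receptor for CNMamide, had 33.9 CPM in the lowest library, a median of 39.8 and 58.8 CPM in the highest. The 28.6M and 33.9M libraries were both at or above 56.1 CPM, and the other 5 lay at or below 44.2 CPM. TrissinR, the receptor for the disulfide-bonded peptide trissin, had 26.4 to 40.8 CPM with a median of 31.7 CPM. In contrast to CNMaR its highest value was in the 21.2M library. SPR, which responds to myoinhibitory peptides and, in mated females, to the seminal sex peptide, had 28.0 to 45.1 CPM with a median of 39.0 CPM. Exons of frma on the opposite strand cover 26.8% of the exon length of SPR.

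Proc-R, the receptor for proctolin, a peptide that acts at nerve-muscle junctions, was low in most cultures, with a median of 3.74 CPM and a lowest value of 2.39 CPM. The highest, 9.24 CPM, came from the 26.8M library, and the other 6 did not exceed 5.24 CPM. Without that library Proc-R averaged 3.76 ± 1.17 CPM (n = 6), with it 4.54 ± 2.33 CPM (n = 7). The 5 muscle markers, of which 4 were detected in every library, summed to 111.2 CPM here, against 14.2 to 36.0 CPM, and their part in the Proc-R value was not tested.

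The allatostatin receptors, relatives of the galanin and somatostatin receptors of vertebrates, were represented mainly by 3 of 4 genes. AstA-R1, a receptor for allatostatin A, which inhibits feeding, had 9.88 CPM in the lowest library, a median of 17.2 and 24.6 CPM in the highest. The 28.5M and 21.2M libraries were far below the others, with 9.88 and 10.6 CPM, against at least 15.5 CPM. AstC-R2, a receptor for allatostatin C, a peptide that inhibits hormone release, had 17.4 to 23.6 CPM (median 19.6 CPM). AstC-R1, its relative on the same chromosome, had 7.18 to 14.1 CPM with a median of 10.6 CPM.

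AstA-R2 (FBgn0039595, chromosome 3R, 28737109 to 28744782, minus strand), the other allatostatin A receptor, was the least abundant of the list. It had 0 counts in the 21.2M, 25.7M and 28.6M libraries, where 3 counts would be a level of 0.142, 0.117 and 0.105 CPM and the exact Clopper-Pearson 95% intervals reach up to 0.174, 0.1435 and 0.129 CPM. In the other 4 it had between 5 and 19 counts, and the highest level was 0.755 CPM (exact Clopper-Pearson 95% interval 0.455 to 1.18 CPM) in the 25.1M library. Such intervals and limits cover counting error only.

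The neuromedin U-like receptors, which bind pyrokinins, capability peptides and ecdysis triggering hormone, were the family with the lowest levels, with a median of 1.62 CPM per kb over 5 receptors. PK2-R1, a receptor for the hugin pyrokinins that link taste to feeding, was the exception, its level being between 14.8 and 24.4 CPM (median 17.8 CPM). PK2-R2, its neighbour on chromosome 3R, had 1.64 to 3.58 CPM with a median of 2.27 CPM. ETHR, which triggers the behaviour of shedding the old cuticle, had 4.11 to 11.5 CPM with a median of 8.13 CPM. Its lowest value came from the 21.2M library.

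CapaR, a receptor best known from the Malpighian tubules, where capability peptides act on fluid secretion, had 1.31 to 4.37 CPM with a median of 2.49 CPM. The 26.8M, 28.6M and 33.9M libraries, with at least 4.02 CPM, did not overlap with the other 4, which reached 2.49 CPM. PK1-R, which binds the pyrokinin cut from the same precursor, ranged between 1 count in the 28.6M library and 31 counts in the 28.5M library, with a median level of 0.679 CPM. Its single count of 0.0349 CPM (exact Clopper-Pearson 95% interval 0.000884 to 0.195 CPM) lay apart from the 1.09 CPM (0.738 to 1.54 CPM) of the highest library.

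CrzR and AkhR are related to the receptor for gonadotropin-releasing hormone of vertebrates and differed strongly in level. CrzR, the receptor for corazonin, a stress-related peptide, had 14.5 CPM in the lowest library, a median of 23.3 and 25.6 CPM in the highest. The low value came from the 28.6M library, in which many other receptors were at their highest, and the other 6 lay at or above 21.5 CPM. CCAP-R, the receptor for crustacean cardioactive peptide, which acts downstream of ecdysis triggering hormone, had 3.66 to 6.97 CPM with a median of 5.38 CPM.

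AkhR, the receptor of the fat body for adipokinetic hormone, which mobilises stored fat and sugar, had a median of 0.583 CPM. It had 71 counts in the 26.8M library, or 2.64 CPM (exact Clopper-Pearson 95% interval 2.07 to 3.34 CPM), against 0 to 25 counts in the other 6, which reached 0.738 CPM. Without that library the mean was 0.437 ± 0.332 CPM (n = 6), with it 0.752 ± 0.888 CPM (n = 7). The 6 fat body markers summed to 575.3 CPM in the same library, against 47.9 to 172.1 CPM, with 2 of the 6 detected in every library. Most of that sum, 557.7 CPM, was apolpp, and Fbp1, Fbp2, Lsp1alpha and Lsp2 were each higher in another library. The part of these markers in the AkhR value was not tested.

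Related receptors were then compared within each culture, as the log2 ratio of CPM per kb after adding 0.1 CPM per kb to both. In 8 of the 10 pairs the same receptor was higher in every culture. CrzR exceeded AkhR by a mean log2 ratio of 4.72 ± 1.17 (SD, n = 7 here and below), and AstA-R1 exceeded AstA-R2 by 4.69 ± 0.93, though for both pairs the ratio depends on the added constant because the lower receptor was near 0 counts. PK2-R1 lay above PK2-R2 by 2.83 ± 0.48, TkR99D above TkR86C by 0.84 ± 0.16, and Dh44-R1 above Dh44-R2 by 0.64 ± 0.20.

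In the other direction, CCKLR-17D1 over CCKLR-17D3 gave a log2 ratio of -2.67 ± 0.27, CCHa1-R over CCHa2-R gave -1.50 ± 0.31 and AstC-R1 over AstC-R2 gave -0.56 ± 0.22. For MsR1 over MsR2, at -0.32 ± 0.39, and Lgr3 over Lgr4, at -0.18 ± 0.28, the mean ratio was smaller than its SD and the first receptor was higher in 2 of 7 cultures, so no order could be given for these pairs.

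**Figure D2:**
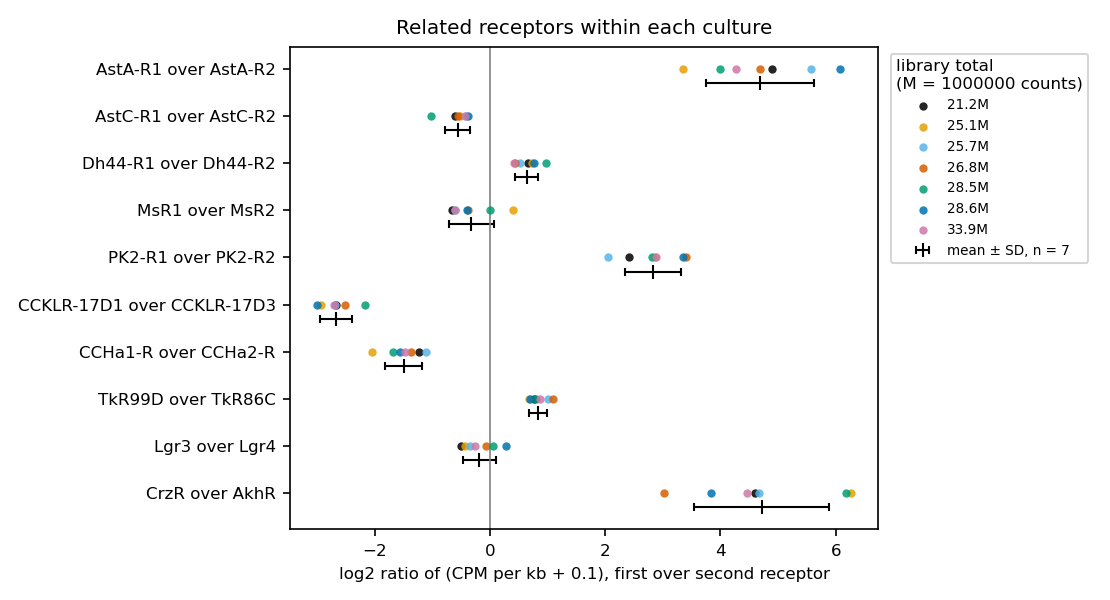
Log2 ratio of the levels of 10 pairs of related receptors (CPM per kb plus 0.1, the first named over the second), with a coloured point for each of the 7 libraries and mean ± SD as a black bar below the points. Points of 8 pairs lie on 1 side of the line at 0, and those of MsR1 over MsR2 and Lgr3 over Lgr4 cross it.

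The receptors were next set beside the precursors of the peptides they bind, with 34 precursor genes joined to 37 receptors in 42 pairs (no precursor was listed for Lgr4). In 23 of the pairs precursor and receptor both reached 10 counts in every library, in 14 only the receptor did, in 3 only the precursor, and in 2 neither. The receptor was higher per kb in 25 pairs and the precursor in 17. This split is by the means alone, without regard to their spread. In the pair nearest to equal, AstC stood at 5.51 ± 2.63 CPM per kb and AstC-R2 at 5.44 CPM per kb. By the same minimum 20 of the 34 precursors, or 58.8%, were detected, against 34 of the 38 receptors.

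Of the 33 detected receptors that have a listed precursor, 10 had none detected: CCHa1-R, CCKLR-17D1, CCKLR-17D3, CNMaR, NPFR, Pdfr, RYa-R, SIFaR, TkR86C and rk. Among these rk stood at 15.5 CPM per kb, against 0.188 and 0.542 CPM per kb for the bursicon subunit genes Burs and Pburs. CCKLR-17D3 stood at 21.04 CPM per kb, against 0.707 CPM per kb for Dsk, the sulfakinin precursor, and CNMaR at 16.3 CPM per kb, against 0.537 CPM per kb for CNMa. Many of these precursors are known from small numbers of neurons, and the sex peptide gene SP, made in the male accessory gland, had 0 counts in all 7 libraries.

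The opposite case was found for Proc-R, Capa receptors, AstA-R2 and Lgr1. Proc, the proctolin precursor, was the most abundant precursor with 394.2 ± 41.6 CPM, or 199.4 CPM per kb, against 1.20 CPM per kb for Proc-R. Capa stood at 29.5 CPM per kb, against 1.62 CPM per kb for CapaR and 0.251 CPM per kb for PK1-R, and AstA at 24.3 CPM per kb, against 0.0968 CPM per kb for AstA-R2. Gpb5 reached 32.9 ± 3.83 CPM, whereas its partner Gpa2 had 0 counts in all 7 libraries and their receptor Lgr1 averaged 0.514 CPM. Gpa2 lies on an unmapped scaffold of the annotation, and no source used here says whether reads were aligned to it. Its 0 counts therefore need not mean that its RNA was absent.

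For short neuropeptide F, sNPF stood at 61.6 CPM per kb and sNPF-R at 12.9 CPM per kb. For tachykinin, Tk stood at 13.5 CPM per kb and TkR99D at 11.9 CPM per kb, just below the median of 12.5 over detected genes. For diuretic hormone 44 the receptors were high and the precursor Dh44 was at 2.49 CPM per kb, although it was detected. Akh, which is made by the corpora cardiaca, endocrine cells of the ring gland, had a mean of 1.52 ± 3.41 CPM, most of it from the 28.6M library with 9.22 CPM, a library in which AkhR had 20 counts.

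**Figure D3:**
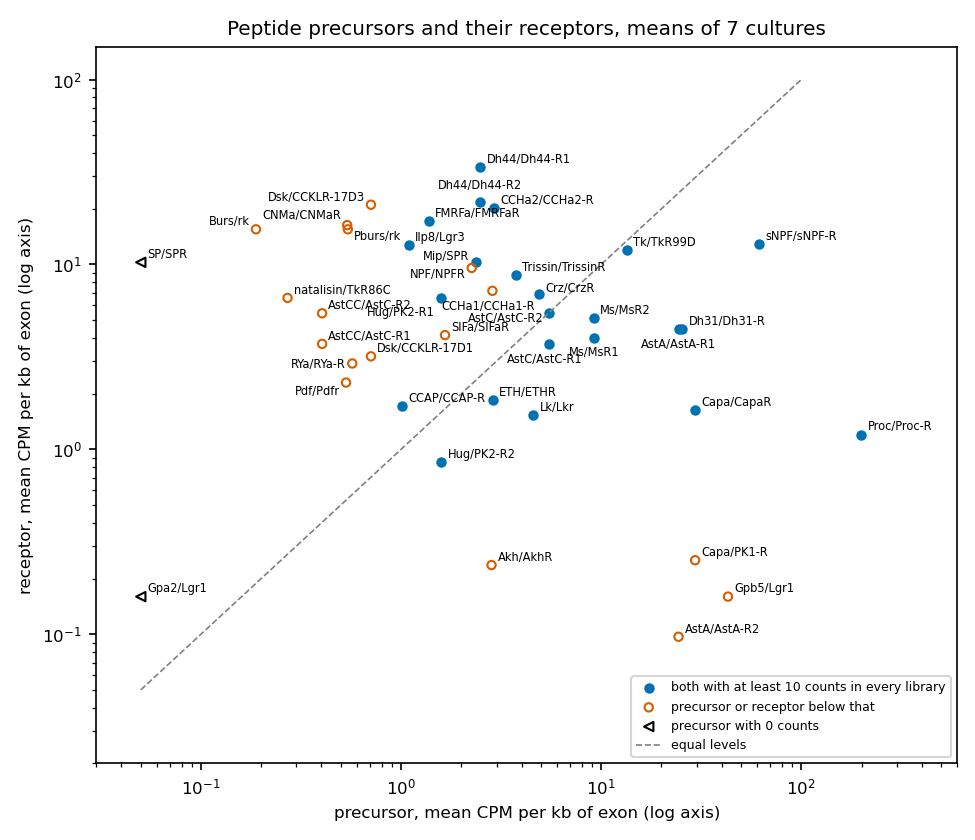
Mean level of each receptor (vertical) against that of a precursor of its peptide (horizontal), both in CPM per kb on log axes, over 42 precursor and receptor pairs, with a dashed line where both are equal. Pairs with both genes at 10 counts or more in every library are filled, other pairs are open, and precursors with 0 counts are drawn at the left edge, with 25 pairs above and 17 below the line.

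Genes that act with or beside these receptors were measured in the same libraries. Of 28 G protein signalling genes (G protein subunits, kinases, arrestins, cyclases and their targets) 27 were detected, with a median of 19.3 CPM per kb, a highest level of 90.2 ± 10.1 CPM per kb for the G protein subunit gene Ggamma1 and a lowest of 1.24 ± 0.51 CPM per kb for Galphaf. Of 25 GPCRs for amines and small transmitters 24 were detected, with a median of 8.96 CPM per kb, ranging between 67.9 ± 11.4 CPM per kb for the serotonin receptor 5-HT2A and 0.0963 ± 0.105 CPM per kb for the muscarinic receptor mAChR-C. The most abundant peptide receptor, Dh44-R1, was thus at 33.7 ± 4.95 CPM per kb, below the highest gene of both lists.

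The spread between cultures was then examined. A chi-square test asked whether the 7 counts of a gene departed from the shares that the library totals predict, with Benjamini-Hochberg adjustment over all 11958 genes with an expected count of at least 5 in every library. All 38 receptors passed at an adjusted 0.05, but so did 97.8% of all genes tested, and a share so near the background is no result about the receptors. Of these calls 3 rested on a single library. FMRFaR did not pass without the 28.5M library, and CrzR and Lkr did not pass without the 28.6M library.

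The size of the spread was taken as the coefficient of variation (CV) between cultures after removal of the part due to counting. The median receptor had a CV of 22.0%, against 17.2% for the median of all genes tested and 14.2% for genes whose mean count lay between the quartiles of the receptors, 196.9 and 1051 counts. With dispersions that edgeR shrinks towards a common trend, the medians were 20.5% for receptors and 20.1% for all genes. The gap to all genes thus depends on the estimate, and no edgeR value is given for the genes of similar mean count. For the receptors the CV spanned 6.89% for CCHa2-R to 118% for AstA-R2. In 22 receptors it exceeded 20%, and in 4 (CCHa2-R, rk, FMRFaR and AstC-R2) it was under 10%. The shares of all genes past these limits are not given here, so these counts are not shown to be particular to the receptors. By comparison the median CV was 40.4% over the precursors, 17.9% over the amine and transmitter receptors and 8.91% over the G protein signalling genes.

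**Figure D4:**
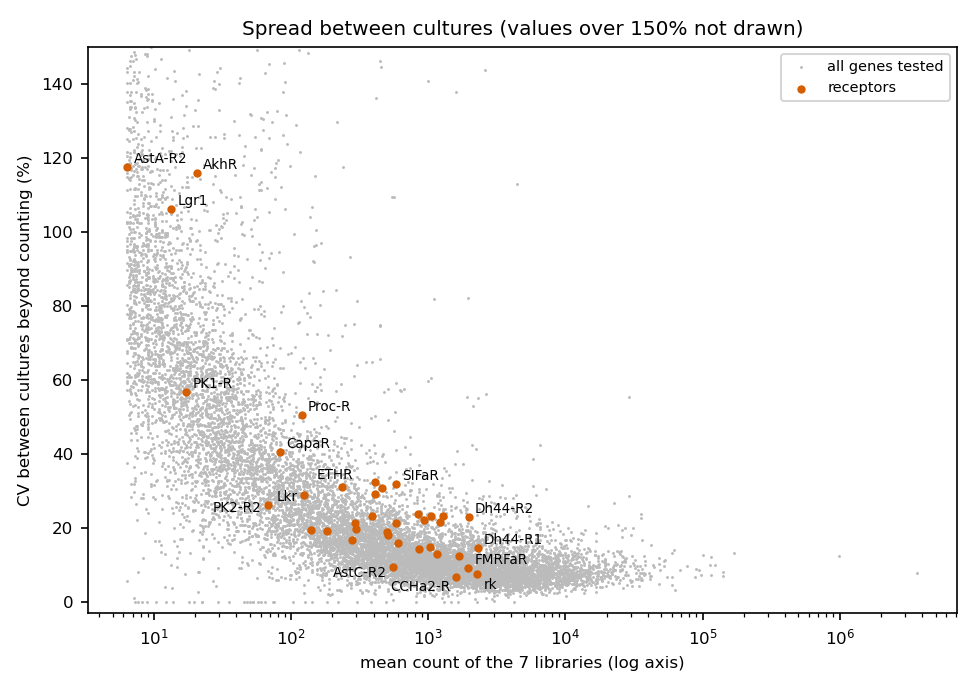
CV between the 7 cultures after removal of counting noise (percent, vertical) against the mean count per library (log axis). The 38 receptors are in orange and the 11958 genes tested in grey, except genes with a CV above the end of the axis, which are not drawn. CVs fall with the mean count, and the receptors run from 118% for AstA-R2 to 6.89% for CCHa2-R.

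Many receptors had the same libraries at the top. In 18 of 38 receptors, or 47.4%, the 3 highest libraries were the 26.8M, 28.6M and 33.9M libraries, against 6.04% of all genes tested. This set of libraries was picked after the receptor values had been seen, and among all genes it ranked 2 of 35 possible sets, the most frequent of which took 7.41%. The 18 receptors included AstA-R1, AstC-R1, AstC-R2, both sulfakinin receptors, CNMaR, Dh31-R, Dh44-R1, Dh44-R2, both tachykinin receptors, NPFR, sNPF-R and SIFaR. The same set held for 9 of 24 amine and transmitter receptors (37.5%), 8 of 28 G protein signalling genes (28.6%), 5 of 30 precursors (16.7%) and 1 of 5 neuronal markers. Of the markers of other tissues, the 3 yolk protein genes, all detected, were highest in the same libraries, with sums of 742.2, 123.8 and 238.6 CPM in the 26.8M, 28.6M and 33.9M libraries, against 24.6 to 86.8 CPM in the other 4. The sum of the 6 fat body genes, of which 2 were detected, was 575.3, 144.1 and 172.1 CPM there, against 47.9 to 103.6 CPM. That order was set by apolpp, with 557.7, 138.7 and 163.0 CPM. Lsp1beta, the other fat body gene detected, had 4.59 CPM in the 28.5M library and 4.30 CPM in the 28.6M library. Fbp1, Fbp2, Lsp1alpha and Lsp2 did not have these 3 libraries highest either. The photoreceptor and muscle sums were also highest in the 26.8M and 33.9M libraries, but the 28.5M library came next for both, with 125.4 and 33.0 CPM, against 98.05 and 32.6 CPM in the 28.6M library. The part of these tissues in the receptor values was not tested.

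By single library, the 28.6M library was the highest for 14 of 38 receptors, or 36.8%, against 12.9% of all genes tested, and the 33.9M library for 8, or 21.1%, against 6.78%. The 26.8M library was highest for 8 as well, but it was highest for 23.7% of all genes. The 21.2M library was lowest for 8 receptors, or 21.1%, against 11.3% of all genes. The 25.1M library was lowest for 7, or 18.4%, against 11.8%. In the 28.5M library the lowest level was found for 10 receptors, or 26.3%, against 16.2% of all genes. These were AstA-R1, AstC-R1, CCKLR-17D3, Dh44-R2, Pdfr, TkR99D, MsR2, FMRFaR, SIFaR and SPR. In the same library 4 of 5 neuronal markers (elav, nSyb, Syt1 and fne) were also at their lowest, and their part in the receptor values was not tested. The 26.8M, 33.9M and 28.6M libraries carry the numbers 1, 2 and 3 in the table, and no source states whether they were prepared together.

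**Figure D5:**
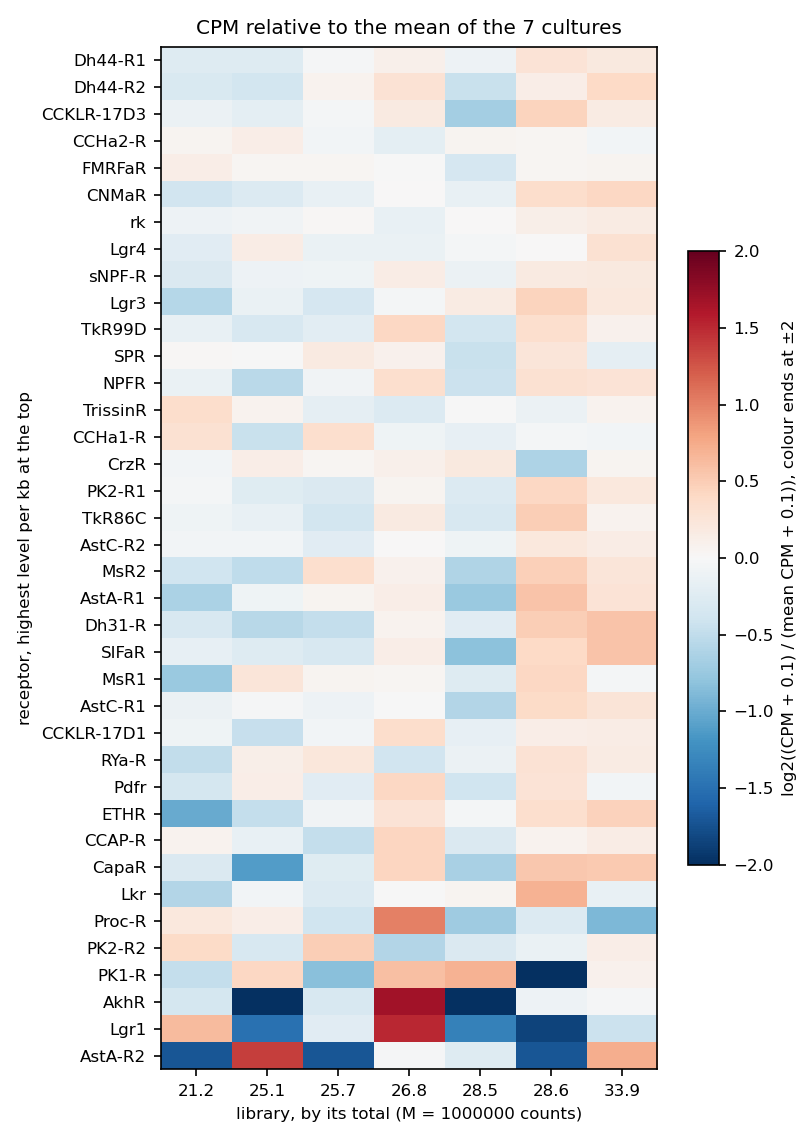
Log2 of the CPM of each receptor in each library over its mean of the 7 (0.1 CPM added to both), with libraries from left to right by total count and receptors from top to bottom by level per kb. Red cells (above the mean) gather in the 26.8M, 28.6M and 33.9M columns, which were the 3 highest for 18 of 38 receptors, and FMRFaR, CCHa2-R and rk are pale in most columns.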

How the data were processed

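Reads of 7 control primary neuron cultures were counted per gene with featureCounts by the authors and deposited as whole-number counts without normalization. Per the labels the libraries were stranded total RNA libraries after ribosomal RNA depletion, while the study's methods describe a stranded mRNA kit. The submitters' processing notes name dm6, but the sources used here give neither the aligner nor the strand setting. Table columns were matched to the group and not to a numbered culture, and 8 further columns of per-sample values were not used. The columns hold 7 libraries with 21178515 to 33891136 counts each.

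From these, counts per 1000000 (CPM) were computed by library total, and divided by exon length (union of exons, BDGP6.54, Ensembl release 115) for comparisons between genes. The annotation matched 17626 of 17753 genes, and the other 127 hold 0.779% of the counts. Detection required 10 counts in every library. Counting noise was tested by chi-square with 6 degrees of freedom and Benjamini-Hochberg adjustment over all genes with an expected count of 5 or more, after a check on simulated data. Outlying libraries were sought by Dixon's ratio, the gap to the nearest value over the range, with a limit of 0.568. Other scalings (TMM of edgeR 4.0.16, size factors of DESeq2 1.42.0), minimum counts and pseudocounts were tried, and each library was left out in turn. Analyses ran in R 4.3.3 and Python 3.11.15 with scipy 1.17.1.

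The receptors, precursors and other lists were chosen with earlier results of these data known. All 38 receptors were to be named, with their precursors and the highest and lowest gene of the other lists. The marker list of the ring gland used phtm, the current symbol of phm. Of 6 such markers 5 were found, jhamt had 0 counts, and the sum was 2.79 to 8.94 CPM per library. Over the remaining marker lists the sums were 718.7 to 824.4 CPM for peptidergic neurons and 23.7 to 46.4 CPM for neuroblasts. For glia the sum was 188.0 CPM in the 26.8M library, against 123.8 to 158.5 CPM in the other 6. For hemocytes it was 107.5 CPM in the 26.8M library, against 42.1 to 48.2 CPM.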

Additional observations from a re-analysis of the deposited data

Results flagged for a closer look

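A library was far from the other 6 for 5 of 39 measures (the CPM of each receptor and their sum), where chance at 1 in 20 gives about 1.9. All measures come from the same 7 libraries, and no such share over all genes is given here. The count is therefore no result about the receptors. AkhR was high in the 26.8M library, with 2.64 CPM, against 0 to 0.738 CPM, a gap of 0.721 of the range. Proc-R was high in the same library, with 9.24 CPM, against 2.39 to 5.24 CPM, a gap of 0.584. In the 28.6M library CrzR was low, with 14.5 CPM, against 21.5 to 25.6 CPM, a gap of 0.63, and Lkr was high, with 7.34 CPM, against 2.97 to 4.66 CPM, a gap of 0.613. FMRFaR was low in the 28.5M library, with 57.4 CPM, against 71.6 to 78.9 CPM, a gap of 0.66.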

How the results depend on the processing

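Of 34 receptors detected, 28 remained with 100 counts required in every library, 36 were found with 1 count, 37 with 10 counts in at least 4 libraries, and 34 without any single library. The median level was 6.60 CPM per kb over detected receptors, against 5.28 over all 38, and 5.04 to 5.45 with a library left out. The summed level was 1144 CPM when Arc1, which took 11.5% to 15.0% of the counts, was taken out of the totals, against 988.7 CPM with it, and 962.0 to 1011 CPM with a library left out. The log2 ratio of AstA-R1 over AstA-R2 was 6.49 with 0.01 CPM per kb added, against 4.69 with 0.1, and the other 89 of 90 alternatives for related pairs moved by less than 1 SD. TMM or DESeq2 scaling moved 76 of 76 receptor levels by less than 1 SD. The median CV was 20.4% to 23.6% with a library left out. The 3 shared highest libraries held for 18 receptors under TMM and DESeq2, against 7.23% and 7.39% of all genes, and for 19 without Arc1, alternatives chosen after seeing the data. No paired analysis was possible because there was a single group. Under 3 counts per library, or about 0.0885 to 0.142 CPM, presence could not be told from absence.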
